A study of Homo sapiens with 6 samples.

Results

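The genes examined here encode the cyclins, cyclin-dependent kinases (CDKs), CDK inhibitors and pocket protein that act at the G1 to S step of the cell cycle. They were chosen by name, as 10 gene symbols matched to Entrez identifiers and then to the rows of a gene-level read count table: CCND1, CCND2, CCND3, CCNE1, CCNE2, CDK4, CDK6, CDKN1B, CDKN2C and RB1. Of these, 9 of 10 had a row among the 12703 genes of the table, and CCND2, which encodes cyclin D2, had none and was not analysed here. The 9 genes with a row had at least 35 reads in every library. The data are RNA-sequencing libraries of PC3 cells with and without overexpression of GCNT1, the gene of a glycosyltransferase that builds core 2 branches on O-glycans. PC3 is a widely used human line that was established from a prostate adenocarcinoma metastasis in bone and grows without androgen. Control cells (n = 3) were stable PC3 lines that had received negative-control lentiviral particles, and GCNT1 overexpression cells (n = 3) were stable PC3 lines that had received particles carrying the GCNT1 open reading frame. The labels name no further treatment of either group. Each library held between 11392213 and 13825704 counted reads. The labels number the libraries of each group as biological replicates 1 to 3, and how the lines of a group were derived from one another is not given in the sources used here, so a p-value measures the spread between these 6 libraries.

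GCNT1 itself was read first, as a check of the labels. Its counts were 9, 13 and 8 reads in control replicates 1 to 3 and 13, 16 and 35 reads in GCNT1 overexpression replicates 1 to 3. Expressed as counts per 1000000 reads (CPM), with library sizes scaled by the trimmed mean of M-values (TMM), the level was 0.715, 1.04 and 0.677 CPM in control cells against 1.12, 1.16 and 2.48 CPM in GCNT1 overexpression cells. All 3 GCNT1 overexpression libraries lay above all 3 control libraries, at low depth, and replicate 3 stood above its group. The edgeR quasi-likelihood test gave a log2 fold change of 0.98 ± 0.37 (SE) with a Benjamini-Hochberg adjusted p = 0.036. Without GCNT1 overexpression replicate 3 the log2 fold change was 0.49 with an edgeR adjusted p = 0.27, without control replicate 1 it was 0.91 with an edgeR adjusted p = 0.092, and without control replicate 3 it was 0.88 with an edgeR adjusted p = 0.094. DESeq2 gave an adjusted p = 0.082 for the same gene, and over the alternatives the adjusted p ranged from 0.011 to 0.27, and to 0.40 with glmTreat, the test against a fold threshold described below. The direction matched the labels, but the size of the rise rested on few reads. Whether reads of the lentiviral insert were counted in this row is not given in the sources used here. The authors also examined GCNT1 in PC3 overexpression cells by immunocytochemistry, sandwich ELISA and real-time PCR, which are separate from these counts.

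The cell line was read next, from lists of marker genes. All 6 of 6 PC3 epithelial markers had a row, led by KRT19, which encodes a simple-epithelium keratin, at 369 ± 17.8 CPM (SD, n = 3) in control cells and 230.4 ± 15.9 CPM (SD, n = 3) in GCNT1 overexpression cells. Among them KRT19 fell (log2 fold change -0.68), CDH1, the gene of E-cadherin, fell from a low level of 3.59 to 1.10 CPM, and KRT7, another keratin gene, rose from 26.0 to 81.7 CPM. Among prostate luminal markers KLK3, KLK2 and FOLH1 had no row, and TMPRSS2 was low and fell from 4.20 to 1.75 CPM. Of 8 fibroblast markers 3 had a row, and DCN, LUM, PDGFRA, PDGFRB and COL1A2 had none. Their summed level was 180.0, 129 and 159 CPM in control replicates 1 to 3 and 47.2, 49.6 and 47.4 CPM in GCNT1 overexpression replicates 1 to 3. The most abundant was the collagen gene COL3A1 (139 against 36.2 CPM), beside COL1A1 (14.6 against 8.55 CPM) and, in the other direction and short of the adjusted p, ACTA2, a smooth muscle actin gene (2.34 against 3.35 CPM, log2 fold change 0.50, edgeR adjusted p = 0.052). ACTA2 was called without GCNT1 overexpression replicate 2 (0.60). Of 5 endothelial markers 2 had a row, KDR (154 against 53.1 CPM) and PECAM1 (1.77 against 4.43 CPM), with sums of 166, 154 and 148 CPM in control cells and 47.7, 63.4 and 61.4 CPM in GCNT1 overexpression cells, whereas CDH5, VWF and TEK had none. Of 7 leukocyte markers CD68 alone had a row, at 89.8 CPM in control and 84.4 CPM in GCNT1 overexpression cells, and PTPRC was among those with none. These marker values moved between the same groups as the G1 genes, and their part in the results below was not tested.

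D-type cyclins bind CDK4 and CDK6 early in G1 and direct them to the retinoblastoma protein, which holds E2F transcription factors in check until it is phosphorylated. E-type cyclins, whose genes are themselves E2F targets, then activate CDK2 and carry the cell into S phase. The INK4 proteins, among them p18 encoded by CDKN2C, bind CDK4 and CDK6, while p27, encoded by CDKN1B, acts mainly on cyclin E and CDK2, and this circuit is commonly altered in prostate cancer as in other carcinomas.

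In the GCNT1 overexpression cells both E-type cyclin genes and both G1 kinase genes rose, whereas the D-type cyclin gene CCND1 and the inhibitor gene CDKN2C fell by smaller amounts. A gene was counted as called when its adjusted p from the edgeR quasi-likelihood test with Benjamini-Hochberg adjustment was under 0.05 and its absolute log2 fold change was at least 0.58. CCNE1, CCNE2 and CDK6 met both, all 3 higher, which is 3 of 9 members beside 19.3% of all 12703 genes. In the higher direction the share of all genes was 8.28%, and in the lower direction, where 0 of 9 members were called by edgeR, limma-voom or DESeq2, it was 11.1%. The balance of directions over all genes depended on the scaling, with 1052 higher and 1405 lower by TMM and 1283 higher and 1230 lower by library size alone. At the adjusted p alone, 6 of 9 members passed beside 57.6% of all genes, 4 of them higher (28.3% of all genes) and 2 of them lower (29.3% of all genes), where library size alone gave 4290 genes higher and 3144 lower. The median log2 fold change of the 9 members was 0.03, and that of all genes was 0.00095. In 6 of 9 members the CPM of the groups did not overlap, beside 62.5% of all genes. The members' shares at the adjusted p and without overlap were thus near those of all genes. RNA was taken from whole cultures, so a different share of cells in a cell-cycle phase and a different amount of RNA per cell cannot be told apart.

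**Figure D1:**
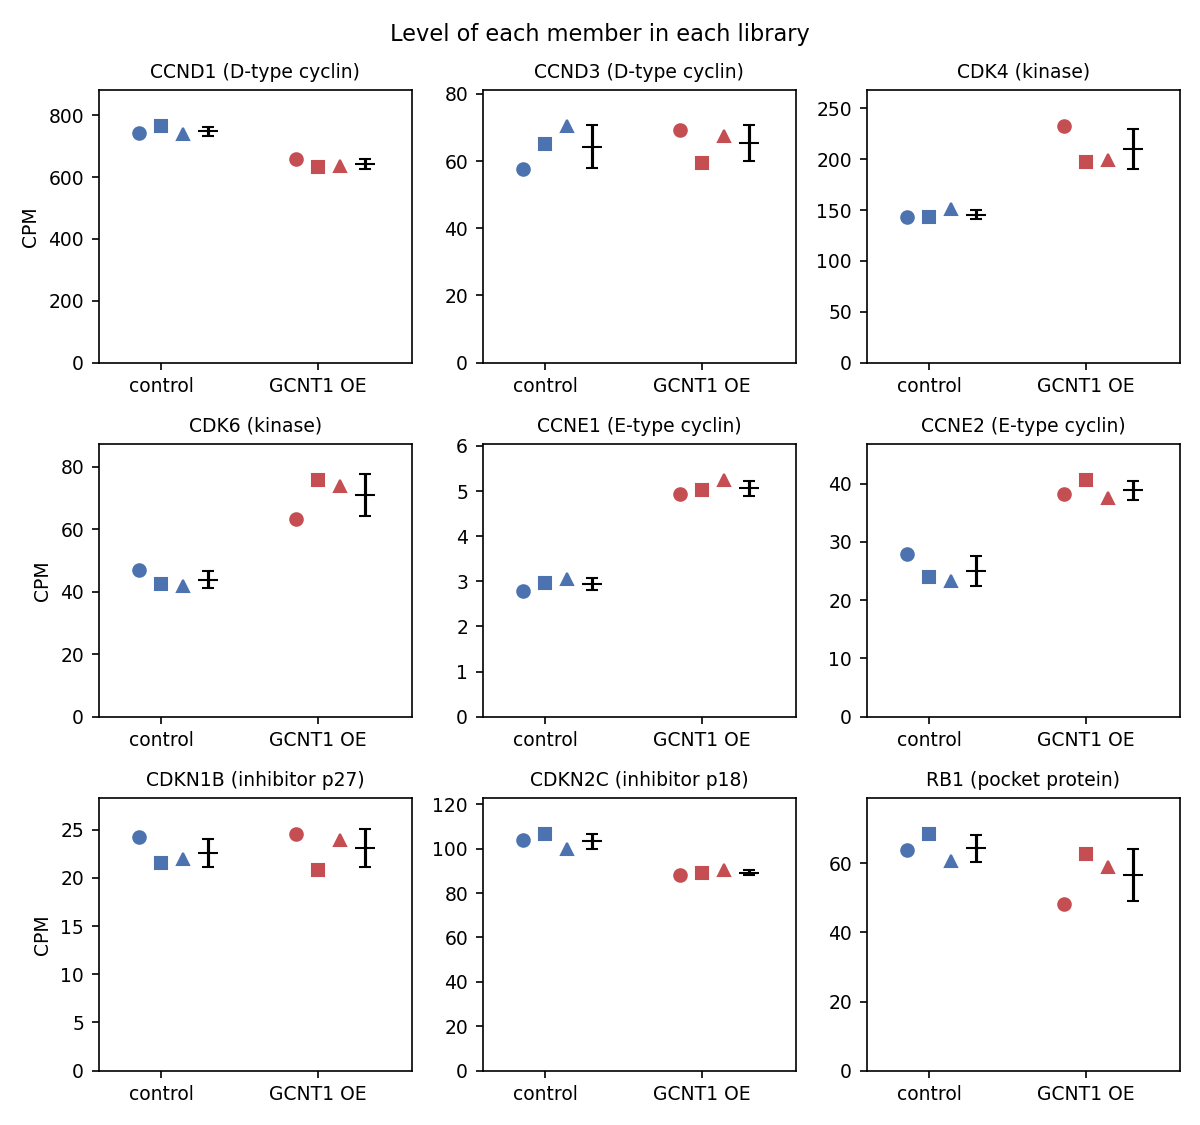
Level of each of the 9 member genes in each library, in CPM on linear axes that start at 0 and differ between panels. Circles, squares and triangles are replicates 1, 2 and 3 of control (blue) and GCNT1 overexpression (red) cells, and black bars are the mean and SD (n = 3). The groups are apart for CCND1, CDK4, CDK6, CCNE1, CCNE2 and CDKN2C, and overlap for CCND3, CDKN1B and RB1.

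CCND1 (Entrez 595) encodes cyclin D1, the D-type cyclin that couples growth signals to CDK4 and CDK6. Its level was 743, 765 and 738 CPM in control replicates 1 to 3 and 659.8, 633 and 635 CPM in GCNT1 overexpression replicates 1 to 3. Every GCNT1 overexpression library lay below every control library. CCND1 fell by 14.2% (95% interval of the change -19.3% to -8.77%), with a log2 fold change of -0.22 ± 0.041 (SE) and an edgeR adjusted p = 0.00047. The change passed the adjusted p but was well short of the fold threshold.

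CCND3 (Entrez 896) encodes cyclin D3, which partners the same kinases. Its level was 57.5, 65.0 and 70.5 CPM in control cells and 69.4, 59.3 and 67.5 CPM in GCNT1 overexpression cells. The libraries of the groups were interleaved. The log2 fold change was 0.02 ± 0.080 (SE) with an edgeR adjusted p = 0.82 and a 95% interval from -0.15 to 0.20, so a change of the size seen for the kinases below lay outside the interval.

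CDK4 (Entrez 1019) encodes a kinase that phosphorylates the retinoblastoma protein once a D-type cyclin is bound. It lies on the minus strand at chr12:57747727-57752310 (GRCh38.p14). The RefSeq promoter table held an entry for 7 of 9 members, and CCND1 and CCNE2 had none. Because CDK4 and CDK6 were both higher in the GCNT1 overexpression cells, the 250 bases before the start of each are shown. In CDK4 (chr12:57752311-57752560, minus strand) the capitals mark the E-box CACGTG, a palindrome, hence the same on both strands. It occurs 3 times in this window, a number reached in 0.080% of the 35116 promoter windows of this length, while 6.34% had at least 1:
CDK4: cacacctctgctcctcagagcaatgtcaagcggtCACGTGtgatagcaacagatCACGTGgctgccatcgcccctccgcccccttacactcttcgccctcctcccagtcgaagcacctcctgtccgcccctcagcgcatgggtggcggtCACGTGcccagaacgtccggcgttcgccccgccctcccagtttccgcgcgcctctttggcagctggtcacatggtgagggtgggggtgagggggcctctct
The CDK4 window also had 3 matches to the GC box GGGCGG, counting both strands. CACGTG was not confined to CDK4 among the members: the window before the start of CDKN2C, which fell, held 1. A match of letters is a description and does not show that a factor was bound.

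The level of CDK4 was 143, 143 and 151 CPM in control replicates 1 to 3 and 233, 198 and 199 CPM in GCNT1 overexpression replicates 1 to 3. Every GCNT1 overexpression library was above every control library, and replicate 1 was the highest. CDK4 rose by 44.1% (95% interval 30.9% to 58.5%), with a log2 fold change of 0.53 ± 0.064 (SE) and an edgeR adjusted p = 1.3e-05. It fell short of the fold threshold with TMM scaling. With library size as the sole scaling its log2 fold change was 0.584 and it met both thresholds.

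CDK6 (Entrez 1021) encodes the other kinase driven by D-type cyclins, and its gene spans chr7:92604921-92836573 on the minus strand (GRCh38.p14). In the 250 bases before its start (chr7:92836574-92836823, minus strand) the capitals mark GGGCGG or its reverse complement CCGCCC, with 3 matches. At least 3 were found in 13.9% of all promoter windows, and 42.6% had at least 1:
CDK6: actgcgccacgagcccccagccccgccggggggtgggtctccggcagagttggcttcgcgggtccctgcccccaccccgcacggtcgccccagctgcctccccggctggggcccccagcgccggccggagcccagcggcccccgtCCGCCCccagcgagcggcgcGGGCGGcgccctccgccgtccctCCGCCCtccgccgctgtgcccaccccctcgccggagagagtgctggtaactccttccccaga
The CDK6 window had no CACGTG. The motif shown in capitals was chosen separately for each gene, and its part in the changes of these genes was not tested.

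The level of CDK6 was 47.0, 42.6 and 41.9 CPM in control cells and 63.1, 75.7 and 73.9 CPM in GCNT1 overexpression cells. The groups did not overlap, and here replicate 1 was the lowest of the GCNT1 overexpression libraries, opposite to its place for CDK4. CDK6 rose by 62.1% (95% interval 44.4% to 81.9%), with a log2 fold change of 0.70 ± 0.077 (SE) and an edgeR adjusted p = 5.9e-06, and met both thresholds.

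CCNE1 (Entrez 898) encodes cyclin E1, an activator of CDK2 at the entry to S phase, and lies on the plus strand at chr19:29811991-29824312 (GRCh38.p14). The 250 bases before its start (chr19:29811741-29811990, plus strand) are shown because CCNE1 had the largest fold change among the 9 members in edgeR on all 6 libraries. Capitals mark GGGCGG or its reverse complement CCGCCC, with 7 matches, a number reached in 1.12% of all promoter windows:
CCNE1: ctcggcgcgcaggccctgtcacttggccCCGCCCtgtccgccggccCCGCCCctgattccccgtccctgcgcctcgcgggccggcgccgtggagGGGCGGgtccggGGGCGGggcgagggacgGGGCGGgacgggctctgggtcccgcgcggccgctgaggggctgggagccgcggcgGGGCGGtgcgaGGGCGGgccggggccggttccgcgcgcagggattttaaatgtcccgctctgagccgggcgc
E2F words were searched on both strands as TTTCCCGC, TTTCGCGC, TTTGCCGC and TTTGGCGC, and were found in 2.79% of all promoter windows. No window of the 7 members with an entry held these exact letters, that of CCNE1 included. The entries for RB1 and CCND3 began within the gene rather than at its annotated start, so 5 of these 7 members had a window there.

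Only few reads came from CCNE1, with 35, 37 and 36 counts in control replicates 1 to 3 and 57, 69 and 74 counts in GCNT1 overexpression replicates 1 to 3. As levels these were 2.78, 2.97 and 3.05 CPM against 4.93, 5.02 and 5.24 CPM. The groups were apart, with little spread inside either. CCNE1 rose by 72.8%, with a wide 95% interval of 38.0% to 116%, a log2 fold change of 0.79 ± 0.15 (SE) and an edgeR adjusted p = 0.00057.

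CCNE2 (Entrez 9134) encodes cyclin E2, the second activator of CDK2 in this family. Its level was 27.97, 23.9 and 23.3 CPM in control cells and 38.3, 40.6 and 37.6 CPM in GCNT1 overexpression cells. All GCNT1 overexpression libraries were above all control libraries. CCNE2 rose by 54.8% (95% interval 37.2% to 74.7%), with a log2 fold change of 0.63 ± 0.081 (SE) and an edgeR adjusted p = 2.1e-05. With each library left out in turn, its log2 fold change ranged from 0.581 to 0.73 and it met both thresholds each time.

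CDKN1B (Entrez 1027) encodes p27, the inhibitor that binds cyclin E with CDK2. Its level was 24.2, 21.5 and 21.99 CPM in control cells and 24.5, 20.8 and 23.9 CPM in GCNT1 overexpression cells, and the groups overlapped fully. The log2 fold change was 0.03 ± 0.087 (SE), with an edgeR adjusted p = 0.80 and a 95% interval from -0.16 to 0.22.

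CDKN2C (Entrez 1031) encodes p18, an INK4 inhibitor of CDK4 and CDK6. Its level was 104, 107 and 99.9 CPM in control cells and 88.2, 89.0 and 90.2 CPM in GCNT1 overexpression cells. The GCNT1 overexpression libraries were close to each other and below every control library. CDKN2C fell by 13.8% (95% interval of the change -20.2% to -6.81%), with a log2 fold change of -0.21 ± 0.052 (SE) and an edgeR adjusted p = 0.0032. It passed the adjusted p and not the fold threshold, as CCND1 did.

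RB1 (Entrez 5925) encodes the retinoblastoma protein, the substrate of these kinases. Its level was 64.0, 68.5 and 60.7 CPM in control cells and 48.3, 62.8 and 59.0 CPM in GCNT1 overexpression cells. The groups overlapped, and GCNT1 overexpression replicate 1 was the lowest library. The log2 fold change of RB1 was -0.18 ± 0.086 (SE) with an edgeR adjusted p = 0.089, not past the threshold. Without GCNT1 overexpression replicate 1 it was -0.08 with an edgeR adjusted p = 0.31, and without GCNT1 overexpression replicate 2 it was -0.25 with an edgeR adjusted p = 0.029. Over the alternatives without a fold threshold in the test the adjusted p ranged from 0.029 to 0.31.

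**Figure D2:**
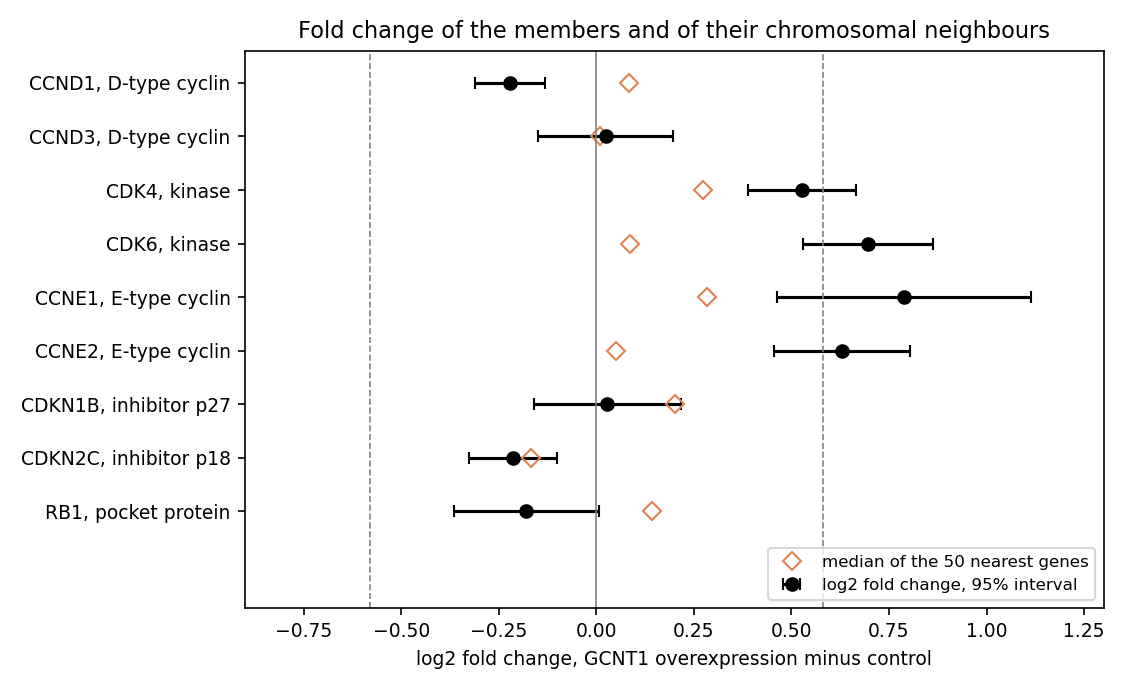
Log2 fold change (GCNT1 overexpression minus control) of the 9 members in order of role, with 95% intervals from edgeR (black), beside the median log2 fold change of the 50 nearest analysed genes on the chromosome (open diamonds). Dashed lines mark 0.58 in each direction. The intervals of CDK4, CDK6, CCNE1 and CCNE2 lie above 0 and include 0.58, those of CCND1 and CDKN2C lie below 0.

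The intervals of the 3 called members all reached below 0.58, so their rise was clear against 0 and not against that size. In edgeR's glmTreat, which tests whether a change exceeds 0.58, 0 of 9 members had an adjusted p under 0.05, against 1392 of all genes. Unadjusted, 2 members had a glmTreat p under 0.05, and the smallest adjusted p from glmTreat was 0.18, for CDK6. Tested against 0, limma-voom and DESeq2 each called 3 of 9 members, the same genes as edgeR.

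Reads of other genes could enter these counts, since the library kit marks strand but the strand setting of the counting is not given in the sources used here. In GENCODE 44, RB1 holds LPAR6, a receptor gene on the opposite strand, within its span, and LPAR6 fell from 17.5 to 11.4 CPM (log2 fold change -0.60, edgeR adjusted p = 0.00028). Also on the opposite strand, in control and GCNT1 overexpression cells respectively, CDK4 overlaps TSPAN31 (26.4 and 29.1 CPM) and MARCHF9 (22.7 and 26.1 CPM), and CCND1 overlaps LTO1 (30.6 and 39.2 CPM). CCNE2 overlaps INTS8 (125 and 110.4 CPM) and NDUFAF6 (24.7 and 27.4 CPM), CDKN1B overlaps GPR19 (4.43 and 3.52 CPM), and RB1 also overlaps RCBTB2 (8.25 and 7.92 CPM). LTO1 rose (log2 fold change 0.36) where CCND1 fell, and INTS8 fell (-0.18) where CCNE2 rose, while TSPAN31 (0.14), MARCHF9 (0.19), NDUFAF6 (0.15), GPR19 (-0.34) and RCBTB2 (-0.06) did not pass the adjusted p. Without strand, reads from the shared stretches of such pairs cannot be told apart.

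The genes around a member can share a shift, so each member was set beside the median log2 fold change of its 50 nearest analysed genes. CCNE1 (0.79) lay among neighbours with a median of 0.28, and CDK4 (0.53) among neighbours with a median of 0.27, leaving differences of 0.51 and 0.25. For CDK6 the neighbours' median was 0.09 and for CCNE2 it was 0.05, small beside the members' own log2 fold changes of 0.70 and 0.63. CDKN2C (-0.21) was close to its neighbours' median of -0.17, with a difference of -0.05. CCND1 (-0.22) and RB1 (-0.18) lay below neighbours with medians of 0.08 and 0.14, CDKN1B (0.03) lay below a median of 0.20, and CCND3 (0.02) was beside a median of 0.01. These medians are given beside the members and were not tested.

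To compare levels between genes, CPM was divided by the length of the union of each gene's GENCODE 44 exons in kilobases. In control cells CCND1 had the highest level among the 9 members at 157 ± 3.05 CPM per kb (SD, n = 3), followed by CDK4 at 47.1 ± 1.46 and CDKN2C at 34.3 ± 1.11 CPM per kb. CCND3 at 11.2 ± 1.13 and RB1 at 10.01 ± 0.607 CPM per kb came next and lay close together on this length. CCNE2 followed at 5.70 ± 0.579, CDK6 at 3.58 ± 0.226, CDKN1B at 2.44 ± 0.157 and CCNE1 at 1.19 ± 0.0554 CPM per kb. In GCNT1 overexpression cells CCNE2 (8.83 ± 0.364 CPM per kb) stood level with RB1 (8.81 ± 1.17), and CDK6 reached 5.79 ± 0.557 CPM per kb. The order depended on the length used: per kilobase of the MANE Select transcript, a length chosen after seeing the data, CDKN2C (104 CPM per kb) was above CDK4 (78.1) in control cells, CCND3 (31.7) stood apart from RB1 (13.5), and CDKN1B (9.37) was above CDK6 (3.76) and level with CCNE2 (9.37).

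Ratios within a library do not depend on how libraries are scaled, and were read for each pair of paralogs and for kinase against partner. CCND3 made up 6.01%, 6.56% and 7.31% of D-type cyclin reads per kb in control replicates 1 to 3 and 7.996%, 7.19% and 8.09% in GCNT1 overexpression replicates 1 to 3, with GCNT1 overexpression replicate 2 below control replicate 3. CCNE2 made up most of the E-type cyclin reads per kb in both groups, 82.6 ± 2.04% (SD, n = 3) in control and 81.1 ± 0.955% in GCNT1 overexpression cells. CDK6 made up 7.07 ± 0.554% of CDK4 with CDK6 reads per kb in control and 7.93 ± 1.32% in GCNT1 overexpression cells. Within each pair the groups overlapped, so the paralogs' proportions differed by less than the spread between libraries for the E-type cyclins and for the kinases. The 3-against-3 design cannot give an exact permutation p below 0.10, and no p is given for these shares.

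**Figure D3:**
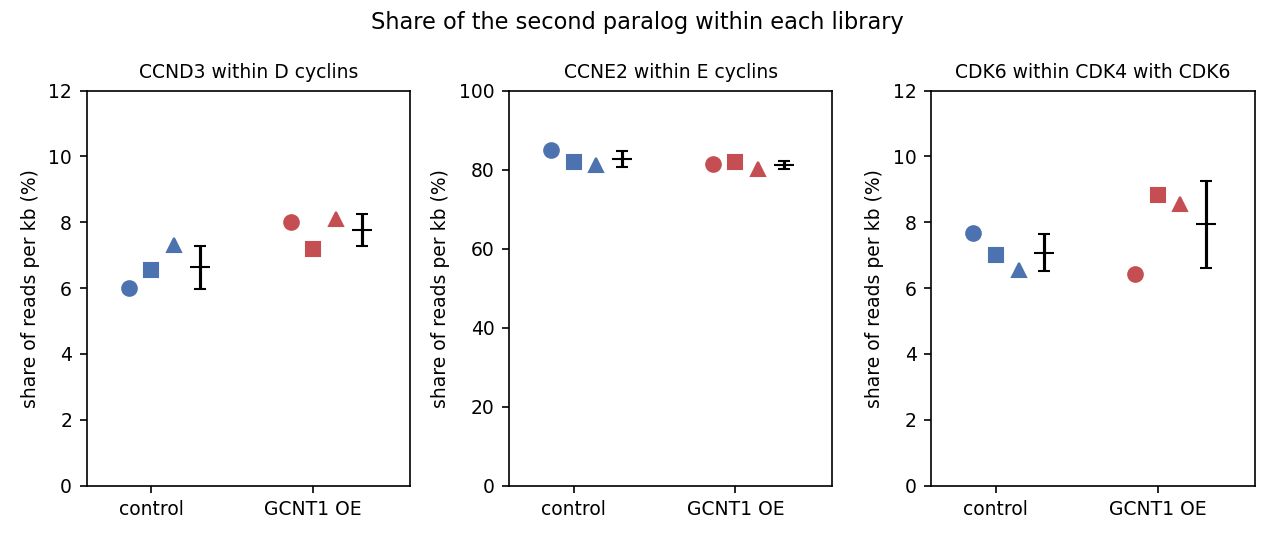
Share of CCND3 in D-type cyclin reads, of CCNE2 in E-type cyclin reads and of CDK6 in CDK4 with CDK6 reads, in percent of reads per kilobase of exon union within each library. Circles, squares and triangles are replicates 1, 2 and 3 of control (blue) and GCNT1 overexpression (red) cells, black bars are the mean and SD (n = 3), and the middle axis runs to 100%. The groups overlap in each panel.

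Kinase against cyclin was different. The log2 ratio of CDK4 to CCND1 counts was -2.38, -2.42 and -2.29 in control cells and -1.50, -1.68 and -1.67 in GCNT1 overexpression cells, which is 1.68 times the ratio in control cells. That of CDK6 to CCND1 was 1.88 times the ratio in control cells. Against the inhibitor CDKN2C, the ratio was 1.67 times that in control cells for CDK4 and 1.87 times for CDK6. The ratio of CCNE2 to CDKN1B was 1.52 times that in control cells, with log2 values of 0.21, 0.15 and 0.08 against 0.64, 0.96 and 0.65. For the ratios to CCND1 and CDKN2C the separation of the groups follows from the members' own levels, which were apart in opposite directions. The values are ratios of RNA counts that say nothing of protein complexes.

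Among other genes of the pathway, the remaining CDK inhibitors were read first. Of 5 listed, 4 had a row, and CDKN1C had none. None of the 4 met both thresholds in edgeR, limma-voom or DESeq2, beside 19.3% of all genes in edgeR. Of the 4, 2 had an unadjusted edgeR p under 0.05. CDKN2D, which encodes the INK4 protein p19, fell from 20.05 ± 0.943 to 13.6 ± 0.817 CPM (SD, n = 3; log2 fold change -0.55, edgeR adjusted p = 0.00012), and was called without control replicate 2 (-0.59). CDKN2A, the gene of p16 and p14ARF, rose from 53.3 ± 8.70 to 65.9 ± 5.87 CPM (SD, n = 3; log2 fold change 0.31, edgeR adjusted p = 0.018). Its groups overlapped, with control replicate 3 (63.3 CPM) above GCNT1 overexpression replicate 2 (61.1 CPM). The list's median was -0.06, and 2 of 4 passed the adjusted p beside 57.6% of all genes. Of 7 genes of CDK2 and its activation 5 had a row, and CDK7 and CDK3 had none. Both thresholds were met by 0 of 5 in edgeR, limma-voom or DESeq2, beside 19.3% of all genes in edgeR. An unadjusted edgeR p under 0.05 was found for 2 of the 5. Both rose: CDC25A, the phosphatase that activates CDK2, from 13.2 ± 0.958 to 18.8 ± 1.48 CPM (SD, n = 3; log2 fold change 0.51, edgeR adjusted p = 0.00050), and CDK2, the partner of the E-type cyclins, by a log2 fold change of 0.29 beside a local median of 0.32. The list's median was 0.03, and the 2 of 5 past the adjusted p stand beside the same 57.6% of all genes.

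The pocket proteins and E2F factors, which stand directly below the G1 kinases, moved in both directions. All 12 of 12 had a row, 5 met both thresholds (2 higher, 3 lower) and 9 passed the adjusted p (6 higher, 3 lower), beside 19.3% and 57.6% of all genes, with a median log2 fold change of 0.11. RBL1 and RBL2, the RB1 relatives that encode p107 and p130, fell to log2 fold changes of -0.59 and -0.63, and E2F5, a repressive E2F that partners p130, fell by 0.67 on the log2 scale. E2F2, an activating E2F, rose from 4.15 ± 0.377 to 7.77 ± 0.421 CPM (SD, n = 3; log2 fold change 0.90, edgeR adjusted p = 7.3e-05), and E2F7, a repressor of the same family, rose by a log2 fold change of 0.63. The local medians were -0.24 beside RBL1, -0.17 beside RBL2, -0.03 beside E2F5, -0.15 beside E2F2 and 0.28 beside E2F7. Both pocket protein relatives were therefore past both thresholds where RB1 was not, and the difference between RB1 and its relatives was not tested. The calls of RBL1 and RBL2 were near the fold threshold: with library size as the sole scaling, RBL1 was at -0.53 and RBL2 at -0.575, just short of it, and without control replicate 1 they were at -0.56 and -0.57, leaving 3 called genes in each case. RBL1 was also short of it without control replicate 2 (-0.56), GCNT1 overexpression replicate 1 (-0.56) or GCNT1 overexpression replicate 3 (-0.56), and E2F7 without control replicate 3 (0.56) or GCNT1 overexpression replicate 3 (0.57). In the windows before the start, RBL1 held 2 E2F words, E2F1 held 2 and E2F2 held 1, and RBL1 fell where E2F2 and, by a log2 fold change of 0.19, E2F1 rose. RBL2, which fell, and E2F7, which rose, held 0. At least 1 such word was found in 2.79% of all promoter windows, and at least 2 in 0.12%.

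None of the 5 MuvB core genes, which join p130 or p107 in the DREAM complex, passed the adjusted p in edgeR, limma-voom or DESeq2. In edgeR 57.6% of all genes passed it, and 0 of the 5 had an unadjusted edgeR p under 0.05. The lowest p was that of LIN37, at 5.70 and 6.94 CPM in control and GCNT1 overexpression cells (log2 fold change 0.28, edgeR adjusted p = 0.081), and the median was 0.18. With library size as the sole scaling LIN37 passed, at a log2 fold change of 0.34 and an edgeR adjusted p = 0.038, and its adjusted p over the alternatives without a fold threshold in the test ranged up to 0.24. Of 9 genes of the ubiquitin ligases that turn over G1 cyclins and p27, none met both thresholds in edgeR, limma-voom or DESeq2 and 5 passed the adjusted p (3 higher, 2 lower), the same number as at an unadjusted edgeR p under 0.05, with a median of 0.03. That count was near the share of all genes, 57.6%, and 19.3% of all genes met both thresholds in edgeR. SKP2, which marks p27 for destruction, fell from 65.4 ± 3.85 to 46.6 ± 0.870 CPM (SD, n = 3; log2 fold change -0.49, edgeR adjusted p = 1.9e-05), beside a local median of -0.69. FBXO31, which targets cyclin D1, rose by a log2 fold change of 0.54 and, with library size as the sole scaling, was called at 0.60.

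Target genes of E2F at the G1 to S step did not move one way. All 20 of 20 had a row, 2 met both thresholds, both lower, and 15 passed the adjusted p in edgeR, of which 9 rose and 6 fell, with a median log2 fold change of 0.12. The adjusted p was passed by 15 in limma-voom and by 10 in DESeq2. Over all genes the shares in edgeR were 19.3% for both thresholds and 57.6% for the adjusted p. DESeq2 also passed fewer of all genes at the adjusted p, 3074 higher and 3282 lower, against 3593 and 3721 in edgeR. The called genes make deoxynucleotides: RRM2, the small subunit of ribonucleotide reductase, fell from 373 ± 12.3 to 229.8 ± 2.95 CPM (SD, n = 3; log2 fold change -0.70, edgeR adjusted p = 3.1e-08), and TYMS, thymidylate synthase, fell from 531 ± 2.42 to 355 ± 16.6 CPM (SD, n = 3; -0.582, edgeR adjusted p = 2.2e-07). The local medians beside RRM2 and TYMS were -0.49 and -0.19. TYMS was at the edge of the fold threshold and was short of it without control replicate 1 (-0.579), control replicate 3 (-0.579), GCNT1 overexpression replicate 2 (-0.56) or GCNT1 overexpression replicate 3 (-0.56), and with library size as the sole scaling (-0.52), leaving 1 called gene each time.

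Genes of mitosis fell while CCNE1, CCNE2, CDK4 and CDK6 rose. Of 12 mitotic and proliferation markers 8 met both thresholds, all 8 lower, and 11 passed the adjusted p, 10 lower and 1 higher, with a median log2 fold change of -0.76. Over all genes 11.1% met both thresholds and 29.3% passed the adjusted p in the lower direction, and the median was 0.00095. Their summed level was 2649, 2755 and 2689.5 CPM in control replicates 1 to 3 and 1779, 1720.5 and 1795 CPM in GCNT1 overexpression replicates 1 to 3, with TOP2A, which encodes a DNA topoisomerase, as the most abundant gene. CCNB1, the gene of cyclin B1, fell from 181 ± 11.8 to 84.8 ± 7.83 CPM (SD, n = 3; log2 fold change -1.10, edgeR adjusted p = 3.1e-08), and the mitotic kinase gene PLK1 fell by 1.03 on the log2 scale. The local medians beside CCNB1 and PLK1 were -0.11 and -0.04. AURKA (-0.90), CCNB2 (-0.85), BUB1 (-0.80), CDC20 (-0.78), TOP2A (-0.73) and MKI67 (-0.62) followed. MKI67 was short of the fold threshold without control replicate 1 (-0.577), GCNT1 overexpression replicate 1 (-0.55) and with library size as the sole scaling (-0.56). FOXM1, a transcription factor of mitotic genes, rose by a log2 fold change of 0.17. The part of these markers in the values of the G1 genes was not tested.

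Of 10 transcription factors that act on CCND1 and CDKN1B 9 had a row and STAT3 had none. FOXO3, which activates CDKN1B, met both thresholds and fell from 52.8 ± 1.91 to 31.2 ± 1.76 CPM (SD, n = 3; log2 fold change -0.76, edgeR adjusted p = 6.9e-07), beside a local median of -0.22, whereas CDKN1B did not pass the test. FOXO1, its relative, rose by a log2 fold change of 0.57, and was called without control replicate 1 (0.63), control replicate 3 (0.60) or GCNT1 overexpression replicate 3 (0.62) and with library size as the sole scaling (0.63). In all, 7 of the 9 passed the adjusted p, 3 higher and 4 lower, beside 57.6% of all genes, with a median of -0.03. Of those that act on CCND1, JUN and CTNNB1 fell by 0.28 and 0.21 on the log2 scale, TCF7L2, a DNA-binding partner of the CTNNB1 product, rose by a log2 fold change of 0.23, and FOSL1, an AP-1 factor gene, was at -0.03 and did not pass.

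**Figure D4:**
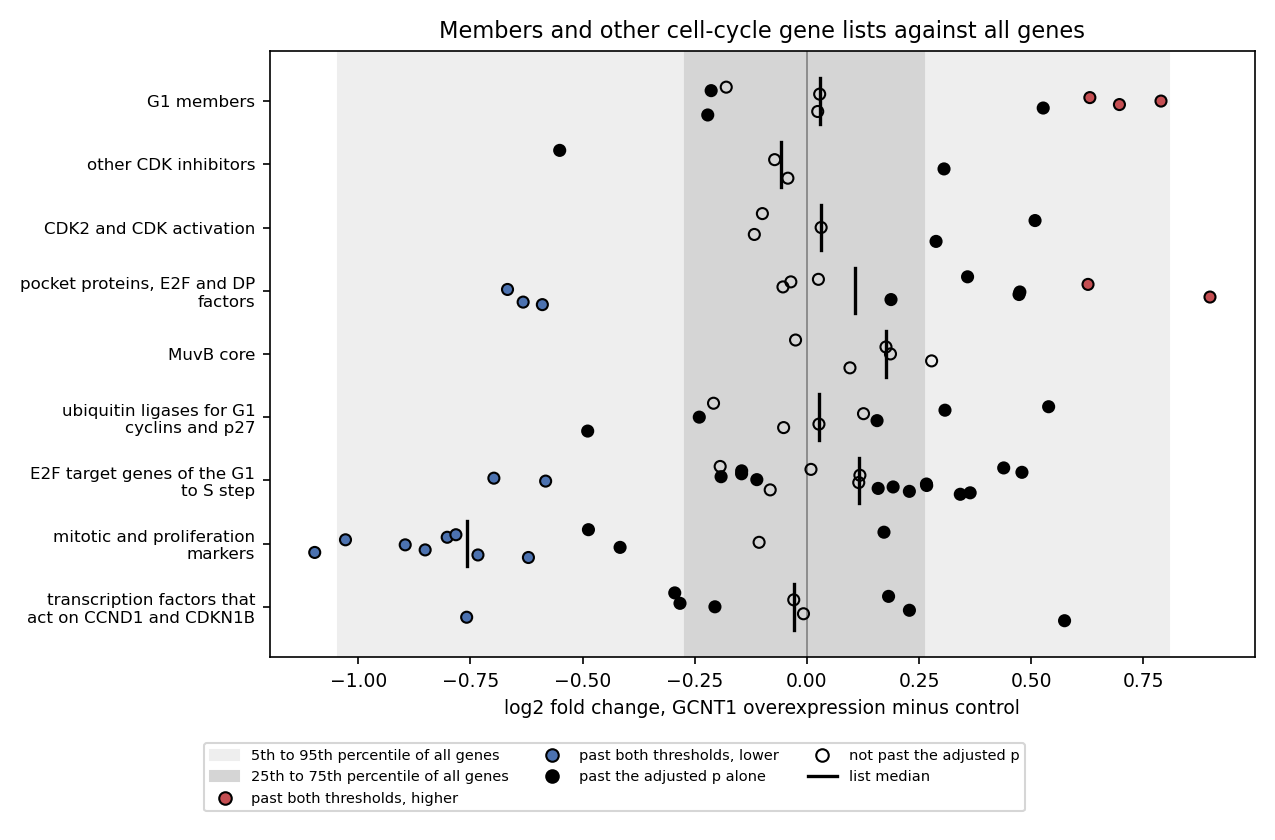
Log2 fold change (GCNT1 overexpression minus control) of each gene of the G1 members and of 8 other cell-cycle lists, with list medians as black bars. Red and blue points are past both thresholds (higher and lower), black points pass the adjusted p alone, open points do not, and grey bands span the 25th to 75th and the 5th to 95th percentile of all genes. The mitotic list has a median of -0.76, whereas the G1 members have a median of 0.03 with points on both sides.

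The calls of the members were the same under most settings. CCNE1, CCNE2 and CDK6 each met both thresholds in 14 of the 15 alternatives and not in glmTreat. Among the 15, the fit with no filter and that with at least 0.5 CPM in 3 libraries kept every gene. These fits repeated the main one and could not differ from it. Without single libraries the log2 fold change ranged from 0.76 to 0.82 for CCNE1, from 0.65 to 0.77 for CDK6, from 0.45 to 0.57 for CDK4, from -0.24 to -0.20 for CCND1 and from -0.24 to -0.19 for CDKN2C. CCND3 and CDKN1B, whose values lay near 0, changed sign in some of these fits, and neither had an adjusted p under 0.05 in any of the 15 alternatives.

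**Figure D5:**
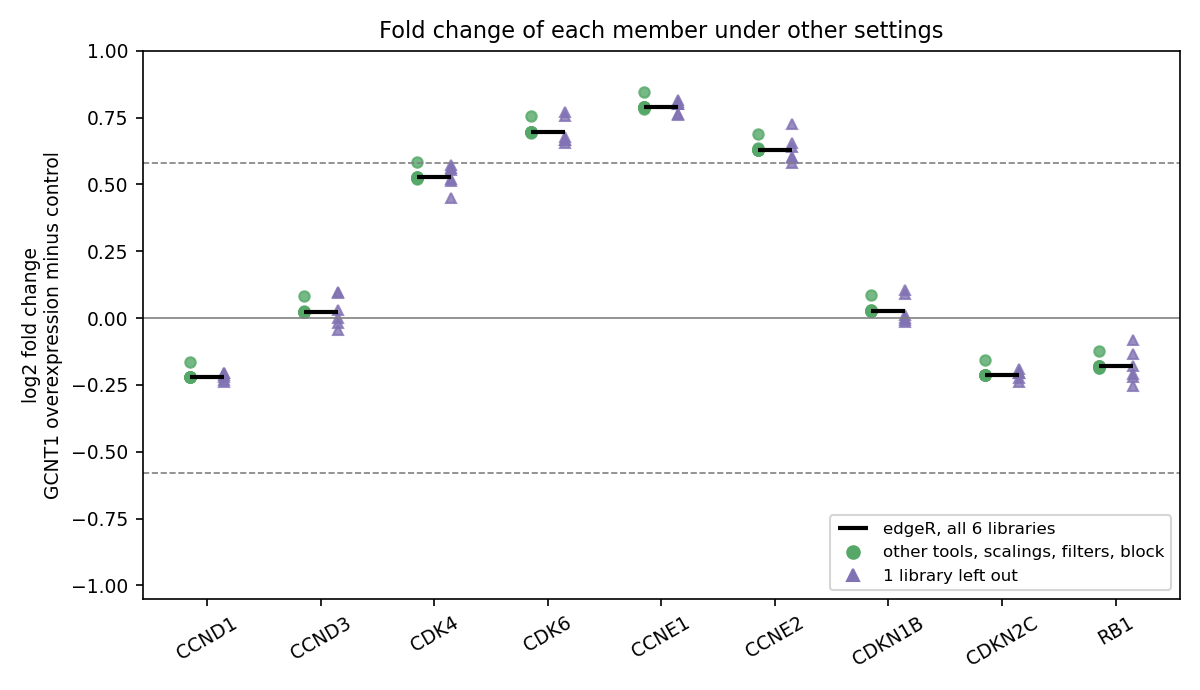
Log2 fold change of each member from edgeR on all 6 libraries (black bars), under other tools, scalings, filters and the replicate block (green circles) and with 1 library left out (purple triangles). Dashed lines mark 0.58 in each direction. CCNE1, CCNE2 and CDK6 lie at or above 0.58 throughout, CDK4 reaches it with library size as the sole scaling, and CCND3 and CDKN1B scatter around 0.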

How the data were processed

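RNA-sequencing reads from 6 PC3 libraries, 3 control and 3 GCNT1 overexpression, had been mapped to hg38 with HISAT2 and counted per gene with featureCounts. The authors deposited raw counts for 12703 genes by Entrez identifier, with no normalization, and each gene reached at least 1.01 CPM in 3 libraries. All 6 columns were used, and 12661 genes matched a RefSeq symbol. From these counts, edgeR 4.0.16 (R 4.3.3) gave CPM with TMM factors and quasi-likelihood tests with Benjamini-Hochberg adjustment over all 12703 genes. filterByExpr removed no gene, and the common biological coefficient of variation was 0.0515. The scripts were tested on simulated data. Genes named in the text were the members, every gene of the other lists past both thresholds or, failing that, the one with the smallest p, and the most abundant marker, and CDKN2A, CDK2, FBXO31, FOXM1, E2F1, FOXO1, JUN, CTNNB1, TCF7L2, FOSL1, ACTA2 and overlapping genes were chosen after their values were seen. The members and lists were chosen with earlier results of these data known. Positions and promoter sequences came from RefSeq (GRCh38.p14), and lengths from GENCODE 44. Alternatives were limma-voom 3.58.1, DESeq2 1.42.0, relative log expression factors, library size alone, other filters, a replicate block, glmTreat and leaving out each library. Python 3.11.15 drew the figures. Part of the prostate luminal marker list is not reported here.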

Additional observations from a re-analysis of the deposited data

How the results depend on the processing

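Counts of called genes and the members' fold changes were computed again under 15 alternatives. With glmTreat, the count fell from 2457 to 1392 for all genes, from 3 to 0 for members called, from 6 to 0 for members past the adjusted p, and to 1 each for the pocket protein and E2F list and for the E2F targets. The construction of that test, which asks for a change beyond 0.58, shows the cause. With library size alone, the pocket protein and E2F list had 3 called genes, the E2F targets 1, the ubiquitin ligases 1 and the transcription factors 2, and the median of all genes moved to 0.06. For these lists the cause was not tested. Leaving out each library in turn gave 3 to 5 called genes in the pocket protein and E2F list, 1 to 2 in the E2F targets, 0 to 1 in the other CDK inhibitors and 1 to 2 in the transcription factors. Over the same fits the log2 fold change of CCND3 ranged from -0.04 to 0.10 and that of CDKN1B from -0.01 to 0.10. CCND3 was below 0 without control replicate 1 (-0.043), GCNT1 overexpression replicate 1 (-0.018) or GCNT1 overexpression replicate 3 (-0.00097), and CDKN1B without control replicate 2 (-0.0054) or GCNT1 overexpression replicate 1 (-0.015). A fit that blocked on replicate number called 2423 genes, 2414 of them among the 2457, and 3 of 9 members. Same-numbered libraries of the groups had deviations from their group means correlated at -0.27, -0.0024 and -0.11. For differently numbered libraries the values ran from -0.20 (control replicate 3 with GCNT1 overexpression replicate 2) to 0.26 (control replicate 3 with GCNT1 overexpression replicate 1). Deviations from a mean of 3 libraries constrain each other, so these correlations cannot decide whether the numbers pair the libraries. Shares per kb moved with the length used: by the MANE Select length, chosen after seeing the data, CCND3 made up 15.2% and 17.5% of D-type cyclin reads in control and GCNT1 overexpression cells, and by reads as counted 7.91% and 9.24%. CDK6 made up 4.59% and 5.17% of CDK4 with CDK6 reads by the MANE Select length and 23.1% and 25.4% by reads as counted, and CCNE2 made up 86.1% and 84.8%, and 89.4% and 88.4%, of E-type cyclin reads. Depth limits CCNE1 most among the members, with 35 to 74 reads in a library.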
